A study of Mus musculus with 6 samples.

Results

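The miR-17-92 cluster was followed through 10 mature miRNA arms, chosen by exact name from the 1915 mature miRNAs listed in every library. Listed there with the mouse prefix, they are mmu-miR-17-5p and mmu-miR-17-3p, mmu-miR-18a-5p and mmu-miR-18a-3p, mmu-miR-19a-3p, mmu-miR-20a-5p and mmu-miR-20a-3p, mmu-miR-19b-3p, and mmu-miR-92a-1-5p with mmu-miR-92a-3p. The data are small RNA-seq read counts from whole brain of wild-type C57BL/6 mouse embryos, 3 libraries for each sex, all taken at E15.5. Embryos were sexed by the presence of testicular cords, and every library held RNA pooled from 2 to 3 of them. Values of a sex are given in the order of its libraries 1, 2 and 3. No treatment or added allele separates the groups, so the only contrast in the labels is sex, and the replicate is a pool rather than an embryo. The litter and the batch of each pool are not given, so other differences between the groups cannot be told apart from sex.

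As background, the cluster is a polycistron: 1 primary transcript carries several hairpins, Drosha and Dicer release them, and either arm of a hairpin can be loaded into an Argonaute protein, where bases 2 to 8, the seed, select target mRNAs. Its miRNAs are known for promoting proliferation and survival, and in the embryonic cortex for expanding neural progenitors. The miR-17 and miR-20a 5p arms repress the cell cycle inhibitor Cdkn1a and members of the E2F family, and miR-92a represses Eomes (Tbr2), a factor of intermediate progenitors.

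The mature sequences are shown because their seeds define the families by which the results are ordered, and because their base composition returns beside the sex differences. They come from RefSeq (all 10 names matched) and were placed on mm9, the build used by the authors, where every one lies on the plus strand of chromosome 14. Each is written 5′ to 3′ with the seed in capitals, in the order in which the primary transcript carries them.

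miR-17-5p: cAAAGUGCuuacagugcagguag
miR-17-3p: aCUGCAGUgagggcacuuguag
miR-18a-5p: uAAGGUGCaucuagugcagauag
miR-18a-3p: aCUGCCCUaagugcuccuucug
miR-19a-3p: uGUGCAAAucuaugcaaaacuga
miR-20a-5p: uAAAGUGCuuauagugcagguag
miR-20a-3p: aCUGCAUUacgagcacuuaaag
miR-19b-3p: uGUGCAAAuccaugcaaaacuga
miR-92a-1-5p: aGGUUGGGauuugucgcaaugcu
miR-92a-3p: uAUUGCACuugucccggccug

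The 6 precursors span 836 bases, from 115442893 to 115443728 on chromosome 14 (mm9), and all of them lie in exon 2 (115442493 to 115445949) of the non-coding host gene Mir17hg, which runs from 115442101 to 115445949. miR-17-5p (115442906 to 115442928) is the first mature arm and miR-92a-3p (115443698 to 115443718) is the last. miR-17-5p and miR-20a-5p share the seed AAAGUGC and differ by C1U and C12U, counted from the 5′ end with the base of miR-17-5p first. miR-19a-3p (115443270 to 115443292) and miR-19b-3p (115443580 to 115443602) share the seed GUGCAAA and differ by the single substitution U11C, with the base of miR-19a-3p first. The mature miR-19b-3p and miR-92a-3p are also encoded by a further precursor each on the X chromosome (mm9, minus strand, 50095160 to 50095243 and 50095015 to 50095105), and the counts do not separate the loci. How reads that match several near-identical miRNAs were assigned is not given in the sources used here. miR-19a-3p and miR-19b-3p may therefore share reads, as may miR-17-5p and miR-20a-5p, and some arms may share reads with paralogs: miR-106a-5p differs from miR-17-5p by U10A and was counted at 0.428 to 9.33 CPM (counts scaled to a library total of 1000000), and miR-18b-5p differs from miR-18a-5p by A18U and A20U and was counted at 0.296 to 7.84 CPM, and miR-20b-5p differs from miR-20a-5p by U1C and U10C and was counted at 5.26 to 18.3 CPM.

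Library totals ran from 14802675 to 59362011 reads on miRNAs and the number of miRNAs with a read from 660 to 915. Female library 2 was the deepest and had the fewest miRNAs detected. Neural miR-9-5p was abundant in all 6 libraries, between 148598 and 195822 CPM. Summed over lists of marker miRNAs, muscle miRNAs lay between 388.1 and 1180 CPM in female and between 5497 and 6139 CPM in male libraries, with 4 of 4 called higher in male by the edgeR test used below. For epithelial miRNAs the ranges were 428.5 to 1133 and 7990 to 8284 CPM (5 of 6 higher in male, miR-141-3p at 0 reads in female library 2), and for mesenchymal miRNAs 4470 to 12476 and 19223 to 23024 CPM (4 of 5 higher in male). The opposite held for a hindbrain and spinal cord list, with 8928 to 12707 CPM in female and 1761 to 2178 CPM in male libraries (3 of 5 higher in female, miR-196a-5p and miR-196b-5p at 0 in most libraries), and for a neuronal list, with 226180 to 267295 and 180377 to 208861 CPM (3 of 6 higher in female). The neuronal miRNAs not called were miR-9-5p, which held most of that sum, miR-124-3p and miR-128-3p. Their log2 fold changes, male over female, were -0.36, -0.56 and -0.09. Endothelial miRNAs were called higher in female in 2 of 2 cases (3864 to 8146 against 2690 to 3900 CPM), red blood cell miRNAs higher in male in 2 of 5 (1284 to 2705 against 3172 to 3927 CPM, the 2 being miR-486a-5p and miR-486b-5p with nearly equal counts, while miR-451a had a log2 fold change of 0.18 and miR-144-3p and miR-144-5p of -0.97 and -0.74, none called), and leukocyte miRNAs in 0 of 4 in edgeR, also at an unadjusted p under 0.05 (105.5 to 133.6 against 121.0 to 141.5 CPM). Except for the leukocyte list, every list had members called, always in a single direction within a list. Besides the red blood cell and neuronal miRNAs named above, miR-141-3p, miR-199b-5p, miR-196a-5p and miR-196b-5p were not called. The part of the lists in the differences below was not tested. In bulk RNA, fewer cells of a type and less RNA per cell cannot be told apart.

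The cluster was detected throughout, and its reads were dominated by 1 arm. None of the 10 arms was at 0 reads in any library. miR-92a-3p held a rank between 3 and 9 among all miRNAs, depending on the library. It held 94.3%, 97.9% and 91.4% of the cluster's reads in the females and 97.0%, 97.9% and 97.6% in the males.

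Averaged over the 6 libraries, the order of levels was miR-92a-3p (38461 CPM), miR-20a-5p (536.5), miR-17-5p (398.0), miR-19b-3p (153.5), miR-18a-5p (86.4), miR-18a-3p (82.5), miR-17-3p (60.5), miR-20a-3p (28.9), miR-19a-3p (24.3) and miR-92a-1-5p (13.7). A read covers a whole mature miRNA, so CPM needs no correction for length, but different miRNAs were not calibrated against known amounts and the order is one of reads. Only the step from miR-92a-3p to miR-20a-5p separated neighbours whose ranges over the libraries did not overlap. miR-20a-5p was above miR-17-5p in 5 of 6 libraries, miR-17-5p above miR-19b-3p in 6 of 6, and miR-18a-5p above its own 3p arm in 2 of 6. The 95% Wilson interval of a level reached to either side by between 0.109% of it (miR-92a-3p) and 17.1% (miR-19a-3p in male library 1). Such intervals cover counting error only, since reads were not collapsed to molecules.

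**Figure D1:**
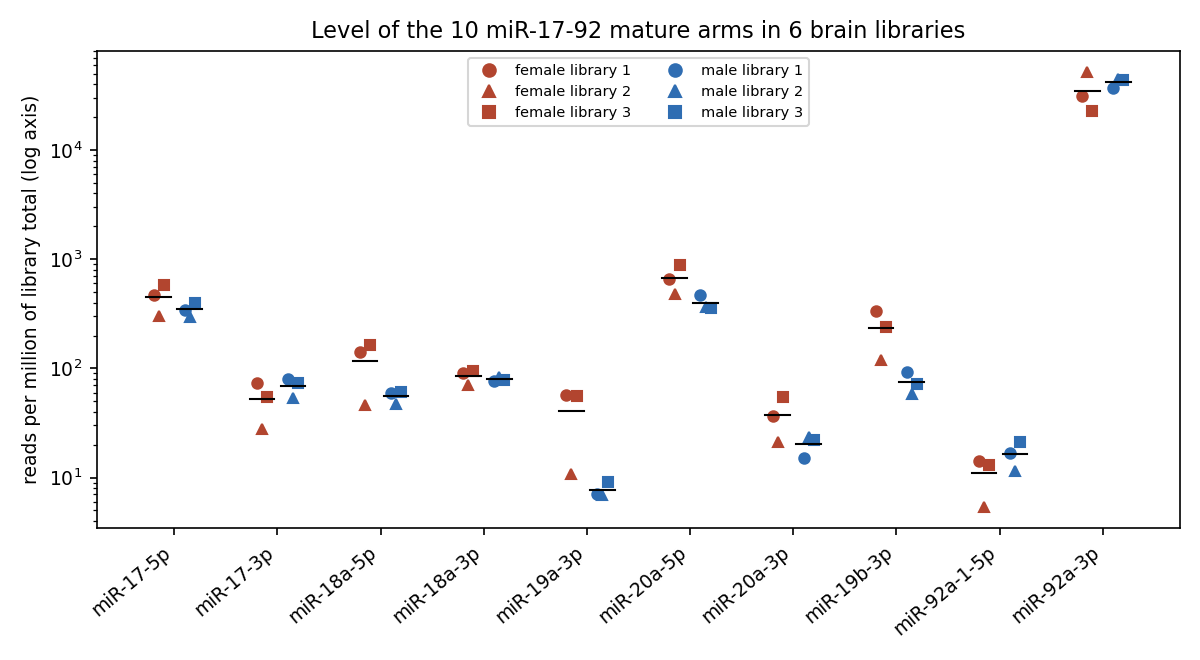
CPM of the library total on a log axis for the 10 mature arms in transcript order, with female libraries in red, male libraries in blue, 1 symbol per library and a horizontal line at each group mean. miR-92a-3p sits far above the rest at 38461 CPM on average, and the male libraries of miR-19a-3p and miR-19b-3p lie below all 3 female libraries.

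The comparison of the sexes asked whether arms of this shared transcript differ between the female and the male brain at this stage. Both miR-19 arms and miR-20a-5p were higher in female brain, by 5.35-fold for miR-19a-3p, 3.13-fold for miR-19b-3p and 1.69-fold for miR-20a-5p in mean CPM, and no male library reached the lowest female library for any of them. miR-18a-5p was called higher in female brain as well (2.10-fold), but its groups overlapped. The other 6 arms did not pass the test, and they include miR-92a-3p, the bulk of the cluster's reads.

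The miR-19 arms carried the widest gaps. miR-19a-3p stood at 56.5, 10.9 and 55.6 CPM in the females, against 7.12, 6.88 and 9.01 CPM in the males. Female library 2 lay close to the males and far below the other female libraries, and the groups did not overlap. The means were 41.0 ± 26.1 CPM in female and 7.67 ± 1.17 CPM in male (SD, n = 3 each), and the log2 fold change, male over female, was -2.50 (SE 0.49, edgeR quasi-likelihood adjusted p = 0.00089). The authors list an RT-qPCR primer for miR-19a-3p, but do not name it among the miRNAs that differed significantly by RT-qPCR. Whether it was measured there is not stated in their text.

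miR-19b-3p stood at 338.9, 118.4 and 240.7 CPM in the female and at 92.7, 58.6 and 71.7 CPM in the male libraries. Female library 2 was again the lowest of its group, yet above the highest male. With means of 232.6 ± 110.4 and 74.3 ± 17.2 CPM (SD, n = 3 each), the log2 fold change was -1.76 (SE 0.27, edgeR adjusted p = 4.4e-05). The sum of the miR-19 seed family was 395.4, 129.3 and 296.3 CPM in female and 99.8, 65.5 and 80.7 CPM in male libraries, without overlap (exact permutation test, two-sided, p = 0.1, the smallest that 3 against 3 can give).

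In the miR-17 seed family, miR-20a-5p and miR-17-5p fell on different sides of the threshold. miR-20a-5p stood at 658.1, 482.6 and 881.3 CPM in female and 469.2, 366.9 and 360.8 CPM in male libraries. The lowest female value was only just above the highest male value. The log2 fold change was -0.88 (SE 0.21, edgeR adjusted p = 0.0063), with means of 674.0 ± 199.8 and 399.0 ± 60.9 CPM (SD, n = 3 each).

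miR-17-5p stood at 465.9, 304.1 and 574.5 CPM in female and 345.3, 297.8 and 400.5 CPM in male libraries. Female library 2 fell among the males, while female libraries 1 and 3 were above all of them. Its log2 fold change of -0.48 (SE 0.22) did not pass (edgeR adjusted p = 0.215). Whether the changes of miR-20a-5p and miR-17-5p differ was tested by their ratio, given further on, and was not settled by it.

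miR-18a-5p, whose seed AAGGUGC differs from that of the miR-17 family by a single base, stood at 140.4, 46.1 and 164.8 CPM in female and 59.3, 46.9 and 61.1 CPM in male libraries. Female library 2 was the lowest of all 6, and the other female libraries were well above every male. The log2 fold change was -1.17 (SE 0.32, edgeR adjusted p = 0.0205).

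miR-92a-3p stood at 31131, 51345 and 22680 CPM in female and 36958, 44431 and 44223 CPM in male libraries. Here female library 2 was the highest of all and female library 3 the lowest, with the males between them. The log2 fold change of 0.11 (SE 0.32, edgeR adjusted p = 0.894) came with a female SD of 14729 CPM around a mean of 35052 CPM, against 41871 ± 4256 CPM in male (n = 3 each).

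The arms usually less loaded into Argonaute did not pass the test. Their log2 fold changes were 0.30 for miR-17-3p (SE 0.32), -0.21 for miR-18a-3p (SE 0.26), -0.97 for miR-20a-3p (SE 0.40) and 0.48 for miR-92a-1-5p (SE 0.55), with edgeR adjusted p between 0.163 and 0.731. Their levels ranged from 5.42 CPM (miR-92a-1-5p in female library 2) to 95.05 CPM (miR-18a-3p in female library 3). The groups overlapped for all 4 of them.

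Counted together, 4 of the 10 arms passed the test, all higher in female, where 8.48% of the 1120 miRNAs tested were called, 5.27% higher in female and 3.21% higher in male. That share includes many miRNAs with few reads. A stricter filter of 10 reads per library, which all 10 arms met, left 550 miRNAs to test. Of these, 97 (17.6%) were called, 68 higher in female and 29 higher in male, and the same 4 arms passed. Groups did not overlap for 3 arms, each with all female libraries above all male ones. Over all miRNAs, 23.9% did not overlap in either direction and 8.57% had every female above every male. The log2 fold change was below 0 for 7 of 10 arms (50.9% of all miRNAs), with a median of -0.68 for the arms and -0.02 for all miRNAs. Neither position in the transcript nor level ordered the differences: the arms of the third and the fifth hairpin led, and the Spearman correlation between mean level and log2 fold change was -0.03 over the 10 arms.

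Without male library 1, calls over all miRNAs went from 95 to 30, and miR-19a-3p (-2.40, edgeR adjusted p = 0.0993), miR-20a-5p (-0.94, adjusted p = 0.0955) and miR-18a-5p (-1.15, adjusted p = 0.297) no longer passed, at log2 fold changes close to those with all libraries. miR-18a-5p was also lost without female library 1 (-1.02, adjusted p = 0.0943), without female library 3 (-0.85, adjusted p = 0.229) and with scaling by library size alone (-1.07, adjusted p = 0.0921). Without female library 2, miR-17-5p (edgeR adjusted p = 0.00773) and miR-20a-3p (0.000648) passed in addition. miR-19b-3p passed in all 6 of these fits, with adjusted p of at most 0.0292.

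**Figure D2:**
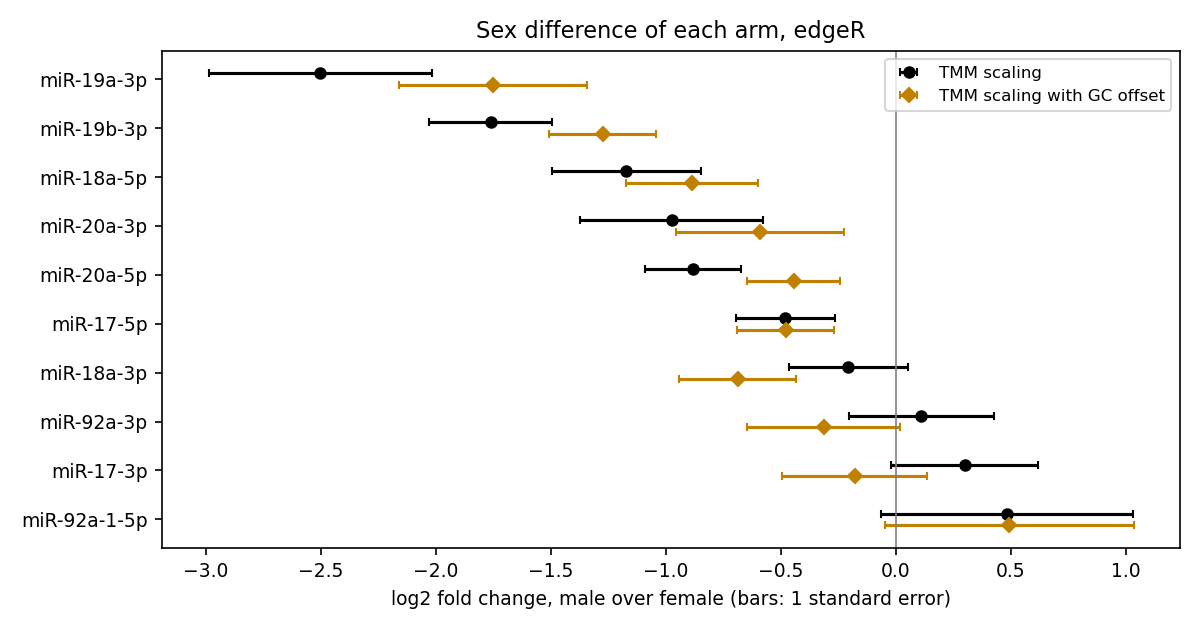
Log2 fold change, male over female, of each arm from the edgeR test (points) with bars of 1 standard error, in black with TMM scaling and in orange with a further offset for GC content in each library. miR-19a-3p (-2.50) and miR-19b-3p (-1.76) lie farthest from 0 and stay below -1 with the offset, while miR-17-3p and miR-92a-3p change sign.

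The sex differences of the arms followed their base composition. GC content was 34.8% in miR-19a-3p, 39.1% in miR-19b-3p and miR-20a-5p, 40.9% in miR-20a-3p, 43.5% in miR-18a-5p, 47.8% in miR-17-5p and miR-92a-1-5p, 54.5% in miR-17-3p and miR-18a-3p, and 57.1% in miR-92a-3p. All 4 arms called higher in female had a GC content below 45%, as had miR-20a-3p, which was not called. Across the 10 arms, the Spearman correlation between GC content and log2 fold change was 0.82 and Pearson's r was 0.85, as a description, since the arms share libraries and a transcript.

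The same direction appeared more weakly over the table as a whole. The Spearman correlation was 0.41 among the 474 miRNAs that had a sequence and averaged 100 reads or more, the 10 arms included. Pearson's r was 0.32 there. The median log2 fold change was -0.85 for miRNAs under 35% GC (n = 37) and -0.77 from 35% to 40% (n = 47), and it was 0.16 from 50% to 55% (n = 104) and 0.23 from 55% to 60% (n = 47). Under 35% GC, 13 miRNAs were called higher in female and 1 higher in male, and from 35% to 40% these counts were 15 and 2. Reads on miRNAs below 40% GC made up 37.2%, 31.8% and 37.7% of the female and 27.0%, 27.9% and 29.2% of the male libraries, so female library 2 lay between its group and the males on this measure too. These shares are weighted by reads, and the miR-9 hairpin makes up much of them. miR-9-5p stood at 195822, 175466 and 192221 CPM in female and 148598, 153038 and 174797 CPM in male libraries. For miR-9-3p the values were 55336, 32956 and 35909 against 17938, 19617 and 20919 CPM. The shares therefore do not by themselves describe many miRNAs.

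**Figure D3:**
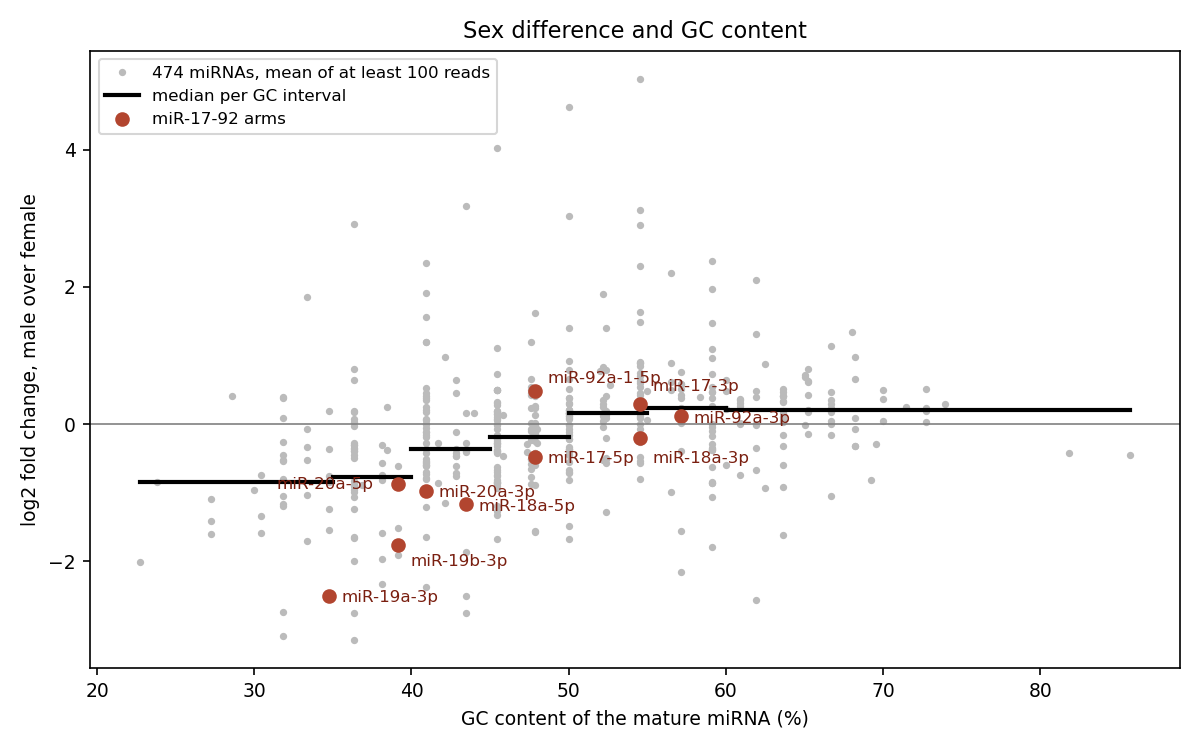
GC content of the mature sequence in percent against the log2 fold change, male over female, for 474 miRNAs (grey), with the median per GC interval (black bars) and the 10 miR-17-92 arms (red). The medians pass from -0.85 under 35% GC to 0.23 between 55% and 60%, and the red points run the same way, with miR-19a-3p and miR-19b-3p below the medians of their intervals.

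An offset for GC content was then added to the test. It was a smooth curve fitted in each library over the miRNAs with a sequence and a mean of at least 100 reads. With this offset the miR-19 arms still passed. Their log2 fold changes were -1.75 for miR-19a-3p (SE 0.41, edgeR adjusted p = 0.0045) and -1.27 for miR-19b-3p (SE 0.23, adjusted p = 0.00023), where 6.25% of all miRNAs were called. miR-18a-5p (-0.89, adjusted p = 0.0557) and miR-20a-5p (-0.44, adjusted p = 0.234) did not pass.

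A ratio of 2 arms in the same library does not depend on how libraries are scaled. Relative to miR-17-5p, the first arm of the transcript, both miR-19 arms were lower in male brain. The ratio of miR-20a-5p to miR-17-5p, which share a seed, did not pass the test across all miRNAs, and miR-17-3p and miR-92a-1-5p lay higher in every male than in every female library without passing it.

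Reads of miR-19b-3p per read of miR-17-5p were 0.727, 0.389 and 0.419 in female and 0.268, 0.197 and 0.179 in male libraries. Every female ratio exceeded every male one, and female library 1 stood above the rest. The log2 change of the ratio was -1.25 (SE 0.31, edgeR adjusted p = 0.0111).

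For miR-19a-3p the ratios were 0.121, 0.0358 and 0.0968 in female and 0.0206, 0.0231 and 0.0225 in male libraries. The male values were nearly alike, and female library 2 was the nearest to them. The log2 change was -1.94 (SE 0.51, edgeR adjusted p = 0.0193).

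The ratio of miR-20a-5p to miR-17-5p was 1.41, 1.59 and 1.53 in female and 1.36, 1.23 and 0.901 in male libraries. The groups did not overlap, and male library 3 was the only library with fewer reads of miR-20a-5p than of miR-17-5p. The log2 change of -0.38 (SE 0.28) did not pass (edgeR adjusted p = 0.496).

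Of the 9 ratios, 2 passed the test, both lower in male, against 6.17% of all miRNAs called relative to miR-17-5p, 1.52% lower and 4.65% higher in male. With the filter of 10 reads per library, 56 of 549 (10.2%) were called, 16 lower and 40 higher in male, and the same 2 ratios passed. Groups did not overlap for 5 of 9, where 23% of all miRNAs behaved so and 4.56% had every female above every male. Besides the 3 above, these were miR-17-3p, with 0.157, 0.0907 and 0.0954 in female and 0.233, 0.180 and 0.182 in male libraries (log2 change 0.79, SE 0.36, edgeR adjusted p = 0.248), and miR-92a-1-5p, with 0.0307, 0.0178 and 0.0228 against 0.0484, 0.0389 and 0.0528 (0.97, SE 0.59, adjusted p = 0.433). Each of these 5 had an exact permutation p of 0.1, or 0.18 after Benjamini-Hochberg adjustment over the 9 ratios. The median log2 change of all miRNAs relative to miR-17-5p was 0.42, so the reference itself lay toward female and its error is shared by all ratios.

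**Figure D4:**
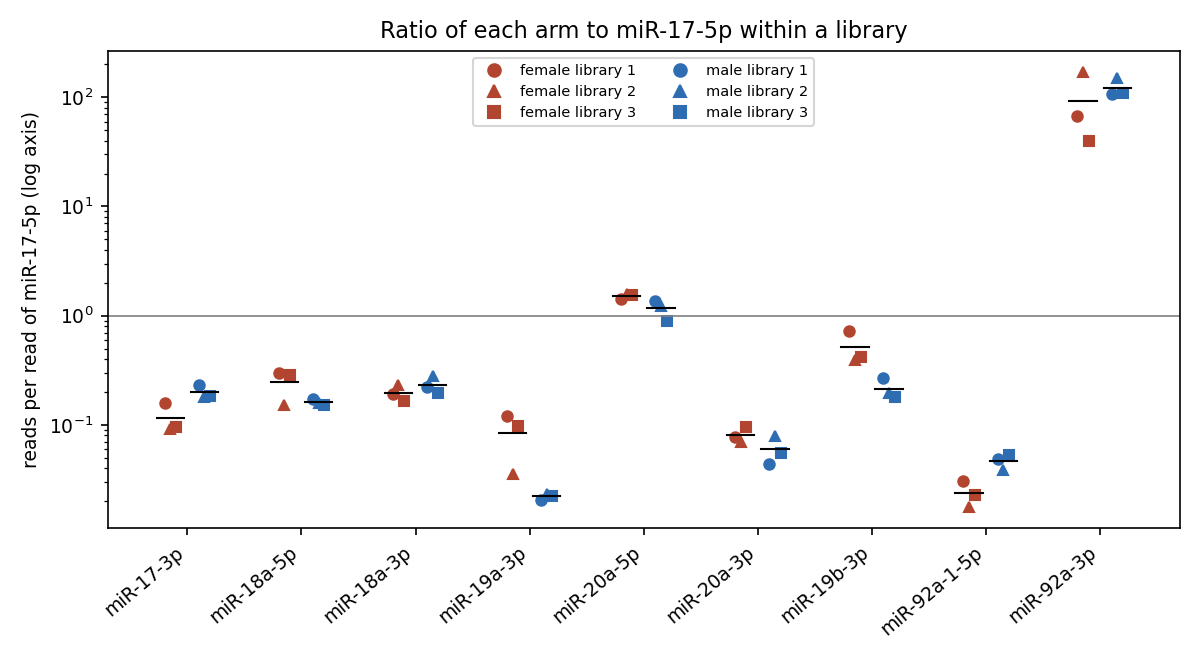
Reads of each arm per read of miR-17-5p in the same library on a log axis, with female libraries in red, male libraries in blue and a line at each group mean. For miR-19a-3p the males lie between 0.0206 and 0.0231 and all females above, for miR-19b-3p the males reach 0.268 and the females start at 0.389, and miR-17-3p and miR-92a-1-5p show the reverse order.

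The choice of reference mattered for what was called. Relative to miR-92a-3p, miR-19a-3p (-3.02, edgeR adjusted p = 0.0110) and miR-19b-3p (-2.13, adjusted p = 0.0116) were lower in male. Relative to miR-20a-5p, miR-19b-3p was lower (-0.89, adjusted p = 0.0499), miR-17-3p was higher (1.17, adjusted p = 0.0289), and miR-19a-3p did not pass (-1.54, adjusted p = 0.0552). With the GC offset, no ratio to miR-17-5p passed in edgeR (miR-19b-3p -0.81, adjusted p = 0.173, and miR-19a-3p -1.24, adjusted p = 0.183), and none passed without female library 1, where miR-19b-3p had an adjusted p of 0.143.

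The miR-19 arms were also compared with each other. Reads of miR-19a-3p per read of miR-19b-3p were 0.167, 0.0919 and 0.231 in female and 0.0768, 0.117 and 0.126 in male libraries. Female library 2 fell among the males. The difference was not larger than the spread between libraries (exact permutation test, two-sided, p = 0.3).

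Both arms of a hairpin are cut from 1 precursor, so their ratio does not depend on the amount of transcript. miR-17 was mostly 5p in every library and somewhat more so in female ones. miR-18a was the most evenly shared hairpin, and miR-20a was almost all 5p in both sexes. None of the 4 arm ratios compared (miR-17, miR-18a, miR-20a and miR-92a-1) passed limma's test, and 0 of all 366 pairs of arms passed it (0%). An unadjusted p under 0.05 was reached by 34 pairs, with miR-17 and miR-19b-1 among them. miR-19b-1 is not among the 4, since its 5p arm had 0 reads in all female libraries and in male library 1. Its groups did not overlap either (log2 change 5.22, limma adjusted p = 0.379).

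The 5p share of miR-17 was 86.4%, 91.7% and 91.3% in female and 81.1%, 84.7% and 84.6% in male libraries. Every female library lay above every male one. The log2 change of the 5p to 3p ratio, male over female, was -0.83 (SE 0.34, limma adjusted p = 0.502; exact permutation test, two-sided, p = 0.1). This was the only 1 of the 4 hairpins without overlap, where 17.8% of all pairs had none.

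For miR-18a the 5p share was 60.9%, 39.6% and 63.4% in female and 43.5%, 35.8% and 43.8% in male libraries. The 5p arm held the majority only in female libraries 1 and 3, and female library 2 fell among the males. The log2 change was -0.80 (SE 0.49, limma adjusted p = 0.580).

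The 5p share of miR-20a lay between 94.0% and 96.9% over the 6 libraries, with a log2 change of 0.08 (SE 0.40, limma adjusted p = 0.940). miR-92a-3p had 2169, 9451 and 1733 reads per read of miR-92a-1-5p in female and 2210, 3830 and 2088 in male libraries. Female library 2 stood far above all others in that ratio, and because miR-92a-3p is made at the X-linked locus as well, the ratio is not that of 1 hairpin. The log2 change of 5p over 3p was 0.34 (SE 0.63, limma adjusted p = 0.828).

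**Figure D5:**
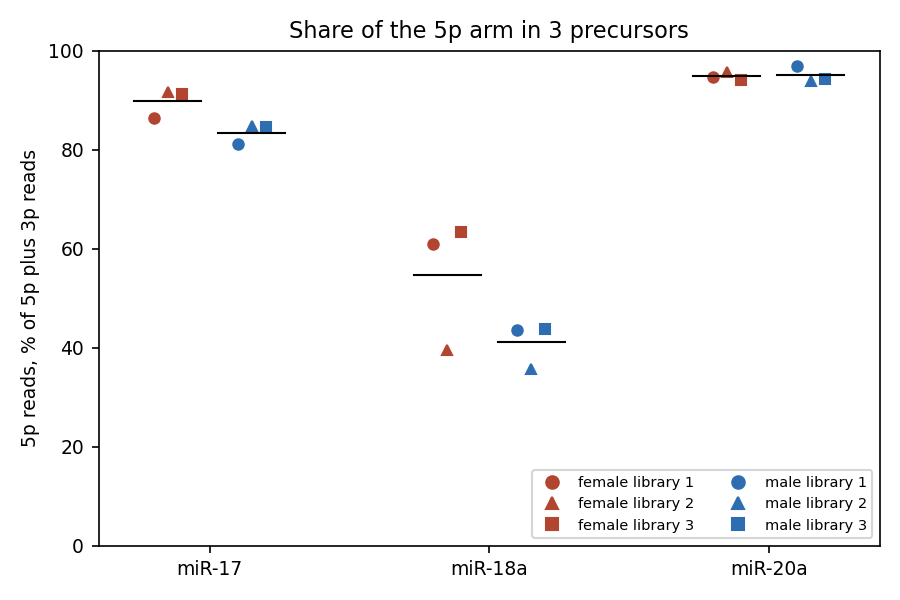
Share of the 5p arm in the reads of both arms, in percent, for the hairpins miR-17, miR-18a and miR-20a, with female libraries in red, male libraries in blue and a line at each group mean. The female miR-17 values (86.4% to 91.7%) lie above the male ones (81.1% to 84.7%), whereas miR-18a overlaps and miR-20a stays between 94.0% and 96.9%.

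As a whole, the 10 arms took up 3.30%, 5.24% and 2.48% of the reads in the females and 3.81%, 4.54% and 4.53% in the males. The males lay within the female range (exact permutation test, two-sided, p = 0.6). Without miR-92a-3p, the remaining 9 arms summed to 1698 ± 545.7 CPM in female and 1070 ± 108.8 CPM in male libraries (SD, n = 3 each), which did not pass either (exact permutation test, two-sided, p = 0.3). The sum therefore followed miR-92a-3p, and it was higher in male on average with that arm and lower without it.

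Correlations of log2 CPM over the 6 libraries are given as a description, since all are shares of the same totals. miR-18a-5p varied with miR-17-5p (Pearson's r = 0.95) and as closely with miR-19a-3p (0.95), and miR-19a-3p with miR-19b-3p (0.95). miR-20a-5p varied with miR-19a-3p (0.91) and miR-19b-3p (0.90), and miR-17-5p with miR-19a-3p (0.87). miR-17-3p and miR-92a-1-5p varied together (0.95) and hardly with miR-19a-3p (0.10 and 0.03). miR-92a-3p ran opposite to miR-17-5p (-0.90) and miR-18a-5p (-0.93).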

How the data were processed

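Small RNA was sequenced from 3 female and 3 male libraries. The authors trimmed adaptors with cutadapt 1.15, mapped reads with Bowtie 1.2.1 (versions per the submitters' processing notes) to miRBase sequences and mm9, and quantified miRNAs with miRDeep2. They deposited raw counts of reads per mature miRNA, without normalization. miR-19b-3p and miR-92a-3p, made at several loci, are listed once each, and reads of identical or near-identical miRNAs may be counted under more than one name.

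Here CPM is the count scaled to a library total of 1000000. miRNAs whose reads over all 6 libraries came to 10 or more (1120 of 1915) were scaled by TMM and tested for sex with edgeR 4.0.16 (R 4.3.3), quasi-likelihood test, Benjamini-Hochberg threshold 0.05. The SE is the absolute log2 fold change over the square root of F. For ratios, each library was scaled by its own count of miR-17-5p. Arm ratios (prior count 0.5) were tested with limma 3.58.1. The procedures were tested on simulated data. The GC offset is a loess curve (span 0.75) per library, and RefSeq gave a mature sequence for 1623 of the 1915 names (table of GRCm38.p6, placed on mm9 with GENCODE vM1). Alternatives were other scalings, filters and references, DESeq2 1.42.0, 1 RUVr factor, a replicate block and each library left out.

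The members, lists and tests were chosen with earlier results of these data known. The rule for names was all 10 arms, the other arms of the cluster, its paralogs by list, and the 5 miRNAs most correlated with miR-17-5p and with miR-19b-3p. p-values measure the spread between pools.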

Additional observations from a re-analysis of the deposited data

How the results depend on the processing

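With the GC offset, 2 arms passed in place of 4, and miR-17-3p (-0.18) and miR-92a-3p (-0.31) changed sign. No ratio to miR-17-5p passed with it, against 2, and the ratios of miR-18a-3p (-0.21) and miR-20a-5p (0.0076) changed sign. Leaving out 1 library at a time gave between 1 arm (without male library 1, miR-19b-3p) and 6 arms (without female library 2), and between 0 (without female library 1) and 4 ratios (without female library 2, with miR-18a-5p and miR-92a-3p added, the latter higher in male). With 1 library left out, miR-92a-3p ran from -0.14 (without female library 3) to 0.58, and the arm ratio of miR-92a-1 from -0.43 (without female library 2) to 0.80. That of miR-20a ran from -0.24 (without male library 1) to 0.26, and was -0.032 without female library 3. The male over female mean of the summed level was 0.630 without miR-92a-3p and 0.679 without miR-19b-3p and miR-92a-3p, against 1.17 with all 10 arms. DESeq2, upper quartile scaling and both other filters kept the count at 4 arms, library size gave 3, and 1 RUVr factor gave 5 in edgeR and 6 in DESeq2. The cause of these changes was not tested.

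Library size moved the median of all miRNAs from -0.02 to 0.11 and the calls higher in female and in male from 59 and 36 to 39 and 50, and 1 RUVr factor moved the median to 0.22 in edgeR and 0.25 in DESeq2 (102 and 123 calls). Calls over all miRNAs were 95, against 147 and 225 with 1 RUVr factor in edgeR and DESeq2 and 203, 60 and 30 without female library 2, female library 3 and male library 1. Relative to miR-17-5p they were 69, against 38 with the GC offset, 30 and 158 relative to miR-92a-3p and miR-20a-5p, and 30 to 196 without 1 library. For arm ratios they were 0, against 13 with at least 10 reads in every library and 17 without female library 2.

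Deviations of same-numbered female and male libraries were hardly correlated (-0.05, -0.01 and 0.05). With 3 libraries per sex this cannot exclude that a number stands for a shared litter, day or batch, which the labels do not give. With a replicate block the count stayed at 4 arms (miR-19a-3p -2.24, miR-19b-3p -1.67), 2 ratios and 0 arm ratios, while calls over all miRNAs relative to miR-17-5p went from 69 to 149. With the block and the GC offset together, 2 arms passed, and miR-17-3p (-0.097) and miR-92a-3p (-0.24) changed sign. Depth limits miR-19a-3p in male and miR-92a-1-5p most, with 133 and 212 reads in their lowest libraries.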

Other observations

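The paralogous clusters miR-106a-363 (X-linked) and miR-106b-25, with miR-92b, gave 18 listed arms, of which 16 were tested and 1 was called, against 8.48% of all miRNAs. miR-106b-5p, which has the seed of miR-17-5p and miR-20a-5p, stood at 675.3, 432.5 and 728.8 CPM in female and 413.8, 354.3 and 411.0 CPM in male libraries, without overlap (log2 fold change, male over female, -0.76, edgeR adjusted p = 0.0164). The X-linked miR-20b-5p, with the same seed, stood at 14.5, 18.3 and 17.2 CPM in female and 6.21, 5.26 and 7.11 CPM in male libraries, also without overlap (-1.57, edgeR adjusted p = 0.106). Over all miRNAs tested, 23.9% did not overlap in either direction and 8.57% had every female above every male. In 3 other paralogs every male library exceeded every female one without passing the test. These were miR-93-5p of the same seed family (4379 to 5490 CPM in female and 5846 to 7910 CPM in male, log2 fold change 0.29, edgeR adjusted p = 0.480), miR-106b-3p (746.1 to 798.0 and 965.8 to 1314 CPM, 0.41, adjusted p = 0.215) and miR-25-3p (9922 to 11780 and 12995 to 14503 CPM, 0.21, adjusted p = 0.686). miR-106a-5p, with 7.09 to 9.33 CPM in female and 0.428 to 4.95 CPM in male, did not overlap either (-1.57, adjusted p = 0.417). The arms of the X-linked precursors whose partner arms equal miR-19b-3p and miR-92a-3p were nearly absent: miR-19b-2-5p had 0 reads in all libraries and miR-92a-2-5p had 1. The X-linked cluster was not silent, however. Its miR-363-3p, with the seed of miR-92a-3p, stood at 140.4, 88.1 and 150.6 CPM in female and 103.8, 138.0 and 115.8 CPM in male libraries (-0.18, edgeR adjusted p = 0.753). miR-363-5p lay between 17.8 and 37.9 CPM (-0.43, edgeR adjusted p = 0.543). How much the X-linked locus adds to miR-19b-3p and miR-92a-3p was not tested.

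The remaining arms of the miR-17-92 hairpins had few reads. miR-19a-5p had 20 reads, all in female library 3, and miR-19b-1-5p had 16 and 19 reads in male libraries 2 and 3 and 0 in the others.

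Among 243 miRNAs with a mean of at least 100 CPM, those whose log2 CPM over the 6 libraries was most like that of miR-19b-3p were miR-101a-3p (Pearson's r = 0.956), miR-106b-5p (0.955), miR-15a-5p (0.950), miR-101b-3p (0.944) and miR-218-5p (0.937). All 5 had a GC content between 33.3% and 42.9%. For miR-17-5p they were miR-434-5p (0.989), miR-30e-3p (0.987), miR-30c-5p (0.983), miR-344-3p (0.967) and miR-30a-5p (0.962), with a GC content between 43.5% and 50%.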
